A study of Mus musculus with 29 samples.

Results

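Barx1, Lhx9, Tfap2c and Pitx1 are 4 genes for transcription factors, and they were followed across 29 RNA sequencing libraries of mouse embryos at E9.0. They were chosen by name, for their large steps between the 2 oldest levels of a somite series (SOMD and SOMC below), and all 4 were found among the 23337 genes of the count files. The levels in SOMD and SOMC are therefore a description, with no test, and the 4 genes are tested only in comparisons that contain neither group. Some of the fits behind these tests do hold SOMC and SOMD libraries, which enter the filter, scaling and spread.

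All embryos were C57BL/6, and the labels describe the explants as Dll1-YFP, a lineage mark of cells that have expressed the Notch ligand gene Dll1. The mark follows a lineage and not 1 cell type, so the sorted cells need not all be paraxial mesoderm. DIR (n = 4) and CTRL (n = 4) are sorted Dll1-lineage cells of presomitic mesoderm, from which somites bud off, cultured with LDN and SAG (DIR) or without them (CTRL). LDN blocks BMP receptors and SAG turns on Hedgehog signalling through Smoothened. The SOM groups are Dll1-lineage cells that were sorted fresh, with no culture, at 4 levels of the trunk. SOMA (n = 3) joins the presomitic mesoderm to the newest somite. SOMB (n = 4) covers somites 2 to 5, and SOMC (n = 4) covers 6 to 9. SOMD (n = 4) starts at somite 10 and ends at 13, 14, 15 or 16 in SOMD1 to SOMD4. The count starts at the newest somite, so SOMD holds the oldest somites, which lie nearest the head. RNA of MUT and WT (n = 3 each) came straight from unsorted trunk tissue. Neither the mutated gene in MUT nor whether replicates are separate embryos is stated in the labels, so p-values measure a spread between samples that may be technical.

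Homeodomain and AP-2 factors bind DNA and set what a region of the embryo becomes. Barx1 is a homeobox factor of the mesenchyme of the face, the pharyngeal arches and the stomach, where it helps to set stomach and molar identity. Lhx9 is a LIM homeobox factor of the limb bud, the early gonad and some neurons of the neural tube, and the gonad does not form without it. Tfap2c, or AP-2 gamma, is a factor of surface ectoderm, neural crest, trophoblast and germ cells. Pitx1 is a homeobox factor of the posterior lateral plate and hindlimb bud, of the first pharyngeal arch and of the pituitary, and it sets hindlimb identity. None of the 4 is a standard marker of somites.

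The genes lie on 3 chromosomes of GRCm38, per GENCODE M21. Barx1 is on chromosome 13 from 48662998 to 48666507 (plus strand) and Pitx1 on the same chromosome from 55825051 to 55836192 (minus strand). Lhx9 is on chromosome 1 from 138825186 to 138848577 (minus strand) and Tfap2c on chromosome 2 from 172549593 to 172558622 (plus strand). No annotated gene overlaps Barx1, Lhx9 or Tfap2c. The non-coding genes Gm47071, on the opposite strand, and Gm28760 overlap Pitx1. They have no row of their own in the count files, and the library kit does not mark strand, so their reads cannot be told apart from those of Pitx1.

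The promoters of Barx1 and Lhx9 are shown because only these of the 4 genes had an entry in the promoter table used. Each is 300 bases of GRCm38.p6 from RefSeq, from 250 bases before the start to 50 after it, on the strand of the gene. The Barx1 window is chr13:48662786-48663085 (plus strand) and the Lhx9 window is chr1:138842395-138842694 (minus strand). The Lhx9 start used by RefSeq lies inside the longer GENCODE gene. Capitals mark matches, on either strand, to any of 7 motifs. The GC box was searched as GGGCGG and the TATA box as TATAAA. A core bound by many homeodomain proteins was searched as TAATTA and the AP-2 motif as GCCNNNGGC. The MEIS motif was searched as TGACAG, the E-box as CACGTG and the CCAAT box by its own letters.
Barx1: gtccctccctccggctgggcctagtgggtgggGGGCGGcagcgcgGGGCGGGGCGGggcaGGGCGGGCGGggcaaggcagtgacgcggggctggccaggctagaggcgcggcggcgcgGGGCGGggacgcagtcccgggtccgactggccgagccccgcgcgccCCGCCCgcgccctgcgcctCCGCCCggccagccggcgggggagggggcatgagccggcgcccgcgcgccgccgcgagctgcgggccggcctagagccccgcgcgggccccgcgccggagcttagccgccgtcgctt
Lhx9: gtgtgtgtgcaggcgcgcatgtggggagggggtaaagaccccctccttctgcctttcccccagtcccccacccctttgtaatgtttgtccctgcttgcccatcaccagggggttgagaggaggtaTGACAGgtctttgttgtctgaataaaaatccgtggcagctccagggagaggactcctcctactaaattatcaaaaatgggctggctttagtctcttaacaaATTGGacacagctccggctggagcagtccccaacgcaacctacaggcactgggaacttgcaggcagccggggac

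The Barx1 window was 84.7% G and C with 50 CpG, and the Lhx9 window 55.3% with 6 CpG, against medians of 52.7% and 7 CpG over 32851 RefSeq promoters. Barx1 had 8 matches to GGGCGG, some of them sharing bases, and Lhx9 had none; 35.7% of all promoters hold one. Lhx9 had 1 match to TGACAG, which 19.2% of promoters hold, and 1 to CCAAT on the opposite strand, which 37.4% hold. Neither window held TATAAA (13.6% of promoters), TAATTA (5.29%), GCCNNNGGC (16.6%) or CACGTG (7.15%). A match describes the letters and does not show that a factor binds there.

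SOMD2 had the fewest gene counts (11541131) and MUT1 the most (44363411). Levels are given as CPM, the count set against a library total scaled by TMM. SOMC1 and SOMC4 were nearly identical, with a chi-square per degree of freedom over genes of 1.90, as were SOMD1 and SOMD4 with 1.86, while the other 19 pairs within SOM groups had 8.74 to 39.7. These pairs differed by more than counting noise and were kept as separate samples, but they may be repeat libraries, and values with each pair counted once are given beside the means. The labelled last somite of SOMD1 (13) and SOMD4 (16) differs although the libraries are nearly identical. Among marker genes, the somite factor Meox1 averaged 274 to 434 CPM in the SOM groups and 277 to 340 CPM in the others. Other somite genes were less even. Meox2 averaged 5.07 CPM in DIR, 6.43 in CTRL and 9.27 in SOMA, and 31.2 to 43.2 CPM in the remaining groups. Pax1 averaged 20.6 CPM in DIR, 1.34 in CTRL and 2.3 in SOMA, and 30.3 to 76.2 CPM in the remaining groups. Brachyury, or T, of presomitic mesoderm averaged 64.6 CPM in DIR, 44.7 in CTRL and 51.9 in SOMA. It averaged 0.584 to 2.86 CPM in SOMB, SOMC and SOMD, 10.9 CPM in MUT and 15.7 CPM in WT.

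**Figure D1:**
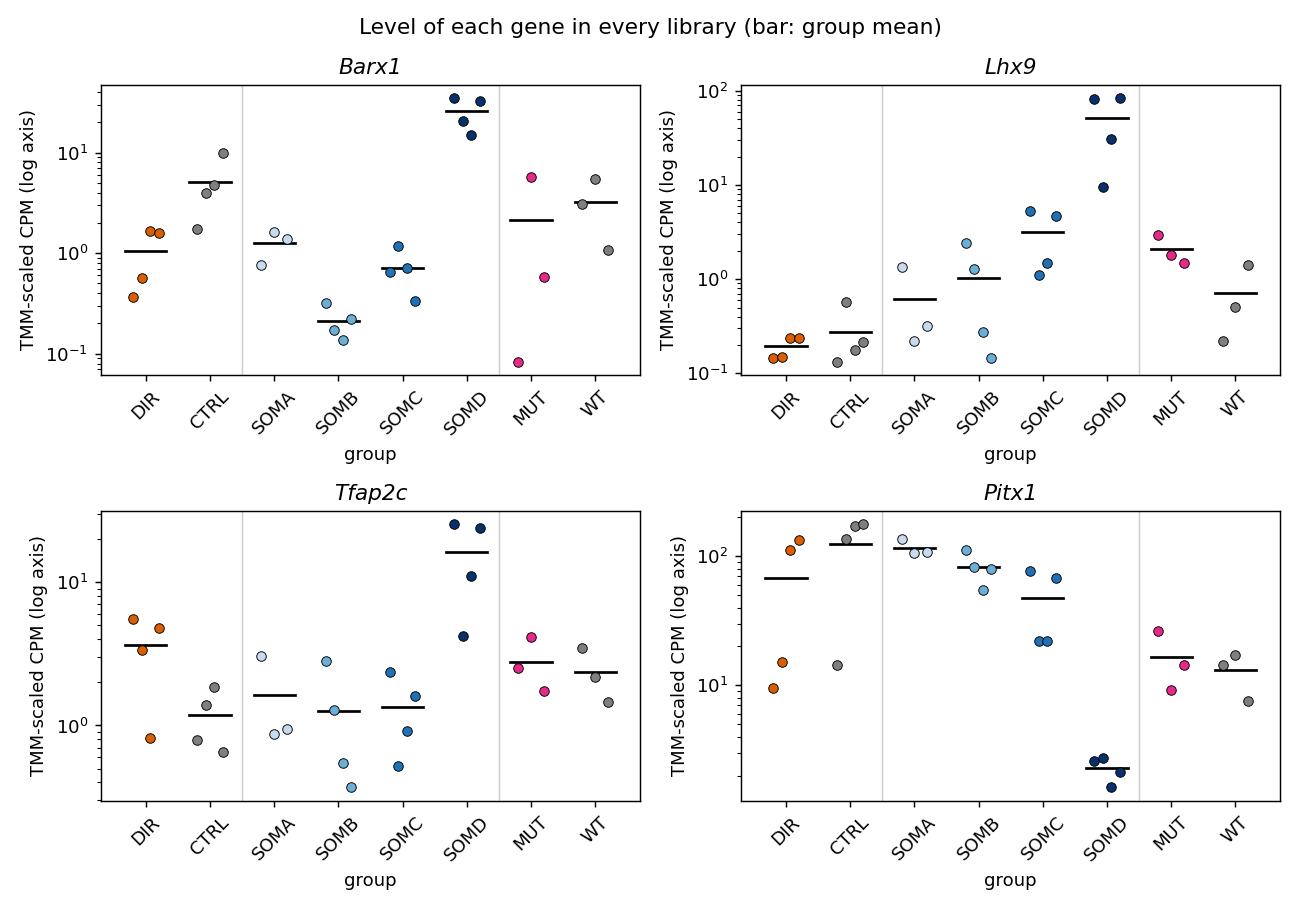
Level of Barx1, Lhx9, Tfap2c and Pitx1 in every library, as TMM-scaled CPM on a log axis, by group, with a bar at the group mean. SOMD is the highest group for Barx1, Lhx9 and Tfap2c (means of 25.8, 51.1 and 16.2 CPM) and the lowest for Pitx1 (2.28 CPM).

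Along the somite series Barx1, Lhx9 and Tfap2c were low through SOMC and high in SOMD, and Pitx1 was high through SOMC and low in SOMD. Pitx1 also stood lower at each level than at the one before in its mean, while the other genes had no common course before SOMD. In bulk RNA, a change in the number of cells that express a gene and a change in RNA per cell cannot be told apart.

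Barx1 had 0.755, 1.61 and 1.39 CPM in SOMA1, SOMA3 and SOMA4, and 0.317, 0.171, 0.137 and 0.221 CPM in SOMB1 to SOMB4. It had 0.644, 1.17, 0.717 and 0.335 CPM in SOMC1 to SOMC4, and 34.8, 20.7, 14.9 and 32.9 CPM in SOMD1 to SOMD4. SOMB was the lowest group without overlap with SOMA or SOMC, and every SOMD library lay above every other library of the series. The SOMB values rest on 7, 4, 2 and 3 reads, against 193 to 925 reads in SOMD. Barx1 averaged 25.8 ± 9.59 CPM in SOMD and 0.715 ± 0.343 CPM in SOMC (SD, n = 4 each), or 23.2 ± 9.71 and 0.791 ± 0.344 CPM with each near-identical pair counted once (n = 3 each).

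Lhx9 had 1.33, 0.219 and 0.316 CPM in SOMA1, SOMA3 and SOMA4, and 2.40, 1.28, 0.274 and 0.147 CPM in SOMB1 to SOMB4. It had 5.3, 1.1, 1.5 and 4.72 CPM in SOMC1 to SOMC4, and 80.9, 9.41, 30.6 and 83.5 CPM in SOMD1 to SOMD4. The SOMD libraries lay above all SOMC libraries but differed among themselves by 8.87-fold, and SOMA and SOMB overlapped. Lhx9 averaged 51.1 ± 36.9 CPM in SOMD and 3.16 ± 2.16 CPM in SOMC (SD, n = 4 each), or 40.7 ± 37.4 and 2.54 ± 2.15 CPM with each pair counted once (n = 3 each).

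Tfap2c had 3.05, 0.877 and 0.948 CPM in SOMA1, SOMA3 and SOMA4, and 2.81, 1.28, 0.548 and 0.369 CPM in SOMB1 to SOMB4. It had 2.38, 0.518, 0.912 and 1.60 CPM in SOMC1 to SOMC4, and 25.6, 4.23, 11.0 and 24.1 CPM in SOMD1 to SOMD4. SOMA, SOMB and SOMC overlapped throughout, and SOMD lay above them, with SOMD2 near their upper end. The averages were 16.2 ± 10.4 CPM in SOMD and 1.35 ± 0.817 CPM in SOMC (SD, n = 4 each), or 13.3 ± 10.5 and 1.14 ± 0.762 CPM with each pair counted once (n = 3 each).

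Pitx1 had 137, 105 and 108 CPM in SOMA1, SOMA3 and SOMA4, and 112, 82.8, 54.5 and 80.1 CPM in SOMB1 to SOMB4. It had 77.2, 21.9, 22.1 and 68.2 CPM in SOMC1 to SOMC4, and 2.58, 2.76, 1.62 and 2.13 CPM in SOMD1 to SOMD4. Each group overlapped its neighbour up to SOMC, and SOMD lay below all others. Pitx1 averaged 2.28 ± 0.511 CPM in SOMD and 47.4 ± 29.5 CPM in SOMC (SD, n = 4 each), or 2.25 ± 0.58 and 38.9 ± 29.3 CPM with each pair counted once (n = 3 each).

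The fitted step of SOMD against SOMC, which chose the genes, was a log2 fold change of 5.27 ± 0.35 (SE) for Barx1, 3.97 ± 0.66 for Lhx9, 3.56 ± 0.62 for Tfap2c and −4.39 ± 0.46 for Pitx1. By size these were the second, seventh and ninth increases and the third decrease of 13790 genes. In all, 2.34% of genes passed an edgeR adjusted p of 0.05 in this comparison, and 16.4% of 13243 did with the replicate number as a block. All libraries of SOMD lay above all of SOMC in 3.64% of genes and below them in 4.12%. Nothing is read from these shares about the 4 genes, which were picked on the same contrast.

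The step had the same direction within each replicate number, on a log2(CPM + 0.25) scale that understates steps to or from low levels. For Barx1 the differences of SOMD from SOMC were 5.29, 3.89, 3.97 and 5.82 for numbers 1 to 4, and for Lhx9 they were 3.87, 2.84, 4.14 and 4.07. For Tfap2c they were 3.30, 2.54, 3.27 and 3.72, and for Pitx1 −4.77, −2.88, −3.58 and −4.84. The near-identical libraries, numbers 1 and 4, gave the largest steps for Barx1, Tfap2c and Pitx1, and number 3 gave the largest for Lhx9. These libraries also had more reads in no annotated gene, with 12.2 to 12.5% against 9.82 to 10.7% in numbers 2 and 3 of both groups. Its part in the sizes was not tested.

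The contrasts that share libraries with that step are given as values only. SOMC against SOMB was 1.62 ± 0.57 for Barx1, 1.52 ± 0.82 for Lhx9, 0.07 ± 0.70 for Tfap2c and −0.78 ± 0.34 for Pitx1 (log2 fold change ± SE). SOMD against SOMA was 4.46 ± 0.37 for Barx1, 6.12 ± 0.91 for Lhx9, 3.23 ± 0.67 for Tfap2c and −5.67 ± 0.47 for Pitx1.

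Per kilobase of annotated exon the level in SOMD was 18.5 CPM for Barx1, 5.38 CPM for Lhx9, 4.41 CPM for Tfap2c and 0.857 CPM for Pitx1. In SOMA the same measure was 0.894 CPM for Barx1, 0.0655 CPM for Lhx9, 0.442 CPM for Tfap2c and 43.9 CPM for Pitx1. Pitx1 was thus the highest of the 4 per length in SOMA and the lowest in SOMD.

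From SOMA to SOMB, a comparison between groups that did not choose the genes, Barx1 fell and the other genes did not pass. The fit also held the SOMC and SOMD libraries, which enter its filter, scaling and spread. Barx1 averaged 0.212 ± 0.0785 CPM in SOMB (SD, n = 4) and 1.25 ± 0.443 CPM in SOMA (n = 3), a log2 fold change of −2.43 ± 0.55 (edgeR adjusted p = 0.00991). This is 1 of 4 genes called, where 8.67% of all 13790 genes were called, and the groups did not overlap, as in 16.1% of genes. The call held without any 1 library of SOMA or SOMB (edgeR adjusted p = 0.00687 to 0.0459). With only SOMA and SOMB in the fit it was −2.46 ± 0.42 (edgeR adjusted p = 0.00783), where 797 genes were called. Within the libraries with more reads in no annotated gene (SOMB1 and SOMA1) the log2 difference was −0.82, and within the others it was −2.04.

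Pitx1 averaged 82.4 ± 23.5 CPM in SOMB and 117 ± 17.5 CPM in SOMA (−0.51 ± 0.36, edgeR adjusted p = 0.525). With replicate number as a block, over the numbers 1, 3 and 4 that both groups have, it fell (−0.53, edgeR adjusted p = 0.00325), where 18.3% of 13215 genes were called, and the 3 log2 differences were −0.29, −0.95 and −0.42. Lhx9 averaged 1.03 ± 1.05 CPM in SOMB and 0.622 ± 0.615 CPM in SOMA (0.62 ± 1.12, edgeR adjusted p = 0.873). Tfap2c averaged 1.25 ± 1.11 CPM in SOMB and 1.63 ± 1.24 CPM in SOMA (−0.40 ± 0.73, edgeR adjusted p = 0.877). The spread within both groups was wider than the difference for Lhx9 and Tfap2c, and in both genes SOMA1 and SOMB1 were the highest of their groups.

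**Figure D2:**
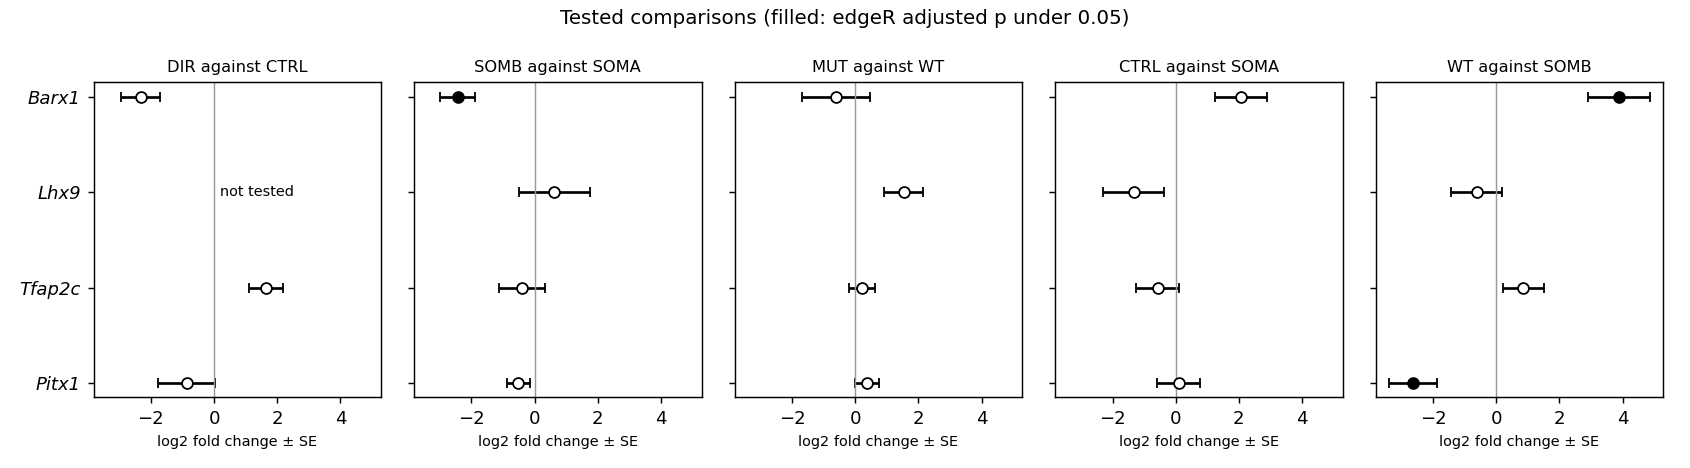
Log2 fold change ± SE of each gene in the 5 tested comparisons, with filled points where the edgeR adjusted p was under 0.05. Barx1 was called in SOMB against SOMA (−2.43) and in WT against SOMB (3.88), Pitx1 in WT against SOMB (−2.64), and Lhx9 was too low to test in DIR against CTRL.

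In culture with LDN and SAG, none of the 3 genes that could be tested passed, while Barx1 was lower and Tfap2c higher in their means. Barx1 had 0.368, 0.572, 1.68 and 1.58 CPM in DIR1 to DIR4, and 1.72, 3.95, 4.73 and 10.0 CPM in CTRL1 to CTRL4. The groups did not overlap, as in 9.14% of genes, although DIR3 lay just below CTRL1. The log2 fold change was −2.32 ± 0.62 (edgeR adjusted p = 0.157), where 0.747% of 14190 genes were called. DESeq2 called it (adjusted p = 0.00323), as it did 3.25% of genes, and so did edgeR with all 29 libraries in 1 fit (adjusted p = 0.0416), which called 9.74%. With a replicate block it also passed (adjusted p = 0.0189), as did 1.8% of genes, but not all same-number libraries of these groups deviated together.

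Tfap2c had 5.57, 3.36, 0.814 and 4.81 CPM in DIR1 to DIR4, and 0.795, 1.40, 1.87 and 0.652 CPM in CTRL1 to CTRL4. DIR3 lay among the CTRL libraries and the other DIR libraries above them. The log2 fold change was 1.64 ± 0.54 (edgeR adjusted p = 0.22; DESeq2 adjusted p = 0.0451). Lhx9 had 0.147, 0.149, 0.239 and 0.240 CPM in DIR1 to DIR4 and 0.133, 0.572, 0.178 and 0.217 CPM in CTRL1 to CTRL4. At 4 to 20 reads per library it did not pass the filter on low counts, and without that filter edgeR gave −0.55 ± 0.54 (adjusted p = 0.653).

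Pitx1 had 9.60, 15.2, 112 and 134 CPM in DIR1 to DIR4, and 14.4, 135, 170 and 178 CPM in CTRL1 to CTRL4. The low libraries were DIR1, DIR2 and CTRL1, in both groups, and the log2 fold change was −0.87 ± 0.90 (edgeR adjusted p = 0.67). The same 3 libraries had 22.3 to 25.4% of reads aligned at more than 1 place, against 15.9 to 19.5% in the other 5. Within the 3 the log2 difference of DIR from CTRL was −0.25 and within the other 5 it was −0.39. A fit that includes that share, added once the values were known, gave 0.57 (edgeR adjusted p = 0.288). The same fit gave −1.38 for Barx1 (edgeR adjusted p = 0.0732). For Barx1 the differences within the 3 and within the other 5 were −1.47 and −1.67, and for Tfap2c they were 2.13 and 0.66.

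**Figure D3:**
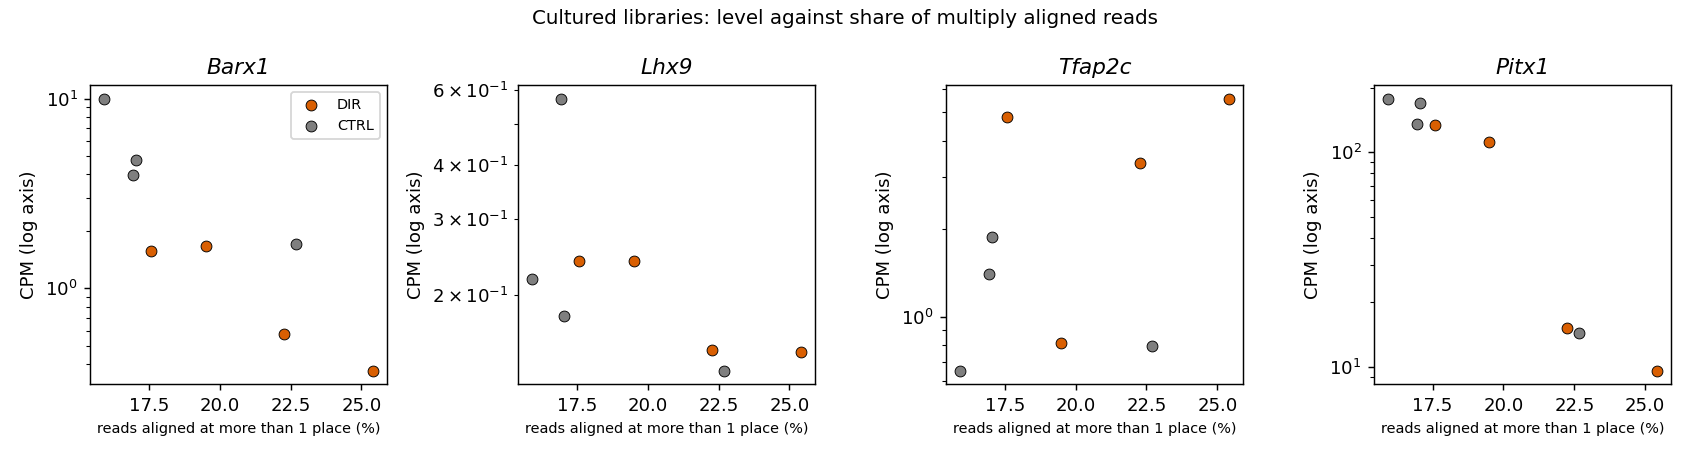
Level of each gene in the cultured libraries (CPM, log axis) against the percentage of reads aligned at more than 1 place, with DIR and CTRL in different colours. Pitx1 lies at 9.60 to 15.2 CPM in the 3 libraries of high share, DIR1, DIR2 and CTRL1, and at 112 to 178 CPM in the other 5.

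Cultured and fresh presomitic mesoderm were set side by side in a fit of all 29 libraries, in which culture and preparation cannot be told apart. None of the 4 genes passed between CTRL and SOMA, where 29.4% of 15223 genes did. Barx1 averaged 5.11 ± 3.52 CPM in CTRL and 1.25 ± 0.443 CPM in SOMA (2.07 ± 0.83, edgeR adjusted p = 0.0616), and it passed without CTRL1 (edgeR adjusted p = 0.0313), where 31.4% of genes did. Pitx1 averaged 124 ± 75.7 CPM in CTRL and 117 ± 17.5 CPM in SOMA (0.09 ± 0.68, edgeR adjusted p = 0.944). Lhx9 differed by −1.33 ± 0.97 (edgeR adjusted p = 0.325) and Tfap2c by −0.57 ± 0.68 (edgeR adjusted p = 0.566).

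In whole trunk tissue Barx1 was higher and Pitx1 lower than in sorted cells of somites 2 to 5. Barx1 had 3.10, 5.52 and 1.07 CPM in WT1 to WT3, all above the SOMB libraries (3.88 ± 0.99, edgeR adjusted p = 0.00158). Pitx1 had 14.5, 17.2 and 7.50 CPM in WT1 to WT3, all below the SOMB libraries (−2.64 ± 0.76, edgeR adjusted p = 0.00439). So 2 of the 4 genes were called and did not overlap, near the background, since 58.5% of 15223 genes were called and 60.4% did not overlap. Lhx9 differed by −0.62 ± 0.80 (edgeR adjusted p = 0.532) and Tfap2c by 0.86 ± 0.66 (edgeR adjusted p = 0.27), or 1.66 without SOMB1 (edgeR adjusted p = 0.0567). Sorting, tissue makeup and differences between the libraries cannot be told apart in this comparison. Reads aligned at more than 1 place came to 38.8 to 39.64% in WT and 18.02 to 20.25% in SOMB. Ambiguous reads came to 0.5835 to 0.6072% in WT and 1.544 to 1.751% in SOMB. The part of these shares in the calls was not tested. The summed level of 10 neural genes was 220 to 388 CPM in WT and 32.6 to 107 CPM in SOMB, and that of 8 endothelial and blood genes was 1190 to 2430 CPM in WT and 110 to 192 CPM in SOMB.

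Between MUT and WT none of the 4 genes passed edgeR, where 0.338% of 14485 genes did. Barx1 had 0.0834, 5.74 and 0.576 CPM in MUT1 to MUT3 and 3.10, 5.52 and 1.07 CPM in WT1 to WT3, a log2 fold change of −0.61 ± 1.07 (edgeR adjusted p = 0.846). MUT1 and MUT2, with 4 and 224 reads, differed by 68.8-fold, and the groups overlapped. Lhx9 had 2.96, 1.82 and 1.49 CPM in MUT1 to MUT3 and 0.221, 0.508 and 1.42 CPM in WT1 to WT3 (1.54 ± 0.62, edgeR adjusted p = 0.276). Without WT3 the log2 fold change was 2.52 (edgeR adjusted p = 0.0966). These groups did not overlap, as in 21.9% of genes, but MUT3 lay close to WT3.

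Tfap2c had 2.52, 4.12 and 1.73 CPM in MUT1 to MUT3 and 3.49, 2.18 and 1.47 CPM in WT1 to WT3 (0.22 ± 0.42, edgeR adjusted p = 0.858). Pitx1 had 26.4, 9.22 and 14.5 CPM in MUT1 to MUT3 and 14.5, 17.2 and 7.50 CPM in WT1 to WT3 (0.36 ± 0.38, edgeR adjusted p = 0.73). In both genes the groups overlapped. DESeq2 gave Pitx1 an adjusted p of 0.774 and gave no adjusted p for the other 3 genes. By the level of Xist, MUT1 and the WT libraries were low and MUT2 and MUT3 high. Within the low ones the log2 difference of MUT1 from WT was −3.14 for Barx1, from 4 reads in MUT1. It was 1.93 for Lhx9, 0.15 for Tfap2c and 1.08 for Pitx1, and none of these was tested from 1 MUT library.

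Set in order of their means over the 8 groups, the genes differ in how far SOMD stands apart. For Barx1 the next group after SOMD was CTRL, at 5.11 CPM, and their ranges did not overlap. For Lhx9 it was SOMC, at 3.16 CPM, also without overlap. For Tfap2c it was DIR, at 3.64 CPM, and here the ranges overlapped, since DIR1 (5.57 CPM) and DIR4 (4.81 CPM) lay above SOMD2 (4.23 CPM). Below SOMD, neighbouring groups overlapped in each of these genes except SOMC and SOMB for Barx1. For Pitx1 the order was CTRL, SOMA, SOMB, DIR, SOMC, MUT, WT and SOMD, with overlap between all neighbours but WT and SOMD.

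The genes whose course over the 29 libraries was most like that of each gene were found by the root mean square difference of centred log2(CPM + 0.25), among 13789 others. Closest to Lhx9 were C130021I20Rik, a non-coding gene that starts 682 bases from Lmx1b on the opposite strand (difference 0.826), Lmx1b itself, a LIM homeobox factor of the dorsal limb (1.015), and Myog, the muscle differentiation factor (1.087). The median over all genes was 2.223. Lmx1b had 26.8, 7.43, 15.3 and 26.2 CPM in SOMD1 to SOMD4, and C130021I20Rik had 89.7, 16.8, 35.5 and 82.4 CPM. The libraries stood in nearly the order of Lhx9, with SOMD1 and SOMD4 high and SOMD2 lowest. Such an order follows from how these genes were picked, and SOMD1 and SOMD4 are near-identical libraries.

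Closest to Barx1 were Gata4, a zinc finger factor of heart and gut mesoderm (1.069), Shox2, a homeobox factor of the limb and heart (1.351), and Hs3st2, a heparan sulfate sulfotransferase gene (1.357; median over all genes 1.954). Gata4 had 24.5, 40.6, 8.48 and 21.4 CPM in SOMD1 to SOMD4, so its highest library was SOMD2. Closest to Tfap2c were Hs3st2 (0.877), Cdo1, a cysteine dioxygenase gene (0.88), and Dach2, a nuclear cofactor gene (0.907; median 1.392). Hs3st2 was low, with at most 1.46 CPM in SOMD and at most 3 reads in any SOMA, SOMB or SOMC library. Hs3st2 and Shox2 passed the filter on low counts only with the SOMD libraries counted, where they were high. Their likeness in SOMD therefore follows from how the genes were picked. Closest to Pitx1 were Gm53, a non-coding gene 6589 bases from Hoxb9 (0.877), 2610528A11Rik (1.021) and Hoxc9, a posterior Hox factor (1.071; median 2.018). Gm53 averaged 16.9, 8.13, 3.17 and 0.244 CPM in SOMA, SOMB, SOMC and SOMD, and Hoxc9 averaged 41.5, 46.2, 24.3 and 3.22 CPM.

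Likeness among the 3 genes that were high in SOMD varied. By likeness to Lhx9, Tfap2c came at place 44 and Barx1 at place 1047. By likeness to Barx1, Tfap2c came at place 31 and Lhx9 at place 10698. By likeness to Tfap2c, Barx1 came at place 11744 (1.567) and Lhx9 at place 11091 (1.521), both farther than the median gene (1.392). The measure depends on the size of the steps as well as on the course, so these places do not show that the courses are unlike. Lhx9 and Tfap2c put the SOMD libraries in nearly the same order, with SOMD2 lowest and SOMD3 next, whereas Barx1 was lowest in SOMD3.

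Of 18 paralogues of the 4 genes 13 could be tested in SOMD against SOMC, and 1 rose and none fell. This was Lmx1b (1.84 ± 0.42, edgeR adjusted p = 0.0312), with 18.9 ± 9.31 CPM in SOMD and 5.39 ± 0.897 CPM in SOMC (SD, n = 4 each). That call was lost with the near-identical pairs summed (edgeR adjusted p = 0.248), without any 1 of SOMC1 to SOMC4, and without SOMD1 or SOMD4 (edgeR adjusted p up to 0.141). Over all genes tested 174 rose and 148 fell, and the median log2 fold change was 0.39 for the paralogues and 0.00 for all genes. Lhx2, the closest relative of Lhx9 and a partner of it in the limb bud, had 35.7 ± 24.6 CPM in SOMD and 6.40 ± 4.29 CPM in SOMC (2.47 ± 0.72, edgeR adjusted p = 0.0925). With the replicate number as a block Lhx2 rose (2.51, edgeR adjusted p = 2.11e-07), and of 11 paralogues tested that way 5 rose and 1 fell. The others were Lmx1b, Isl1, Isl2 and Lhx3, which rose, and Lhx1, which fell (−0.93, edgeR adjusted p = 0.00137). Lhx3 had 28, 8, 14 and 24 reads in SOMD1 to SOMD4 and 16, 1, 2 and 16 in SOMC1 to SOMC4. It passed the filter on low counts only with the SOMD libraries counted, where it was high, so its call adds nothing to the count. In that fit 1075 genes rose and 1100 fell over all genes, and 2 of its 4 blocks hold the near-identical libraries.

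Pitx3 was near 0 in every group, at 0.0609 CPM or less on average. Barx2 was low in both SOMD and SOMC, at 0.219 and 0.140 CPM on average (edgeR adjusted p = 0.994). Tfap2a and Tfap2b, AP-2 factors of neural crest and ectoderm, had 2.24 and 1.54 CPM in SOMD and 2.80 and 1.56 CPM in SOMC on average (edgeR adjusted p = 0.985 and 0.999). In WT trunk tissue they averaged 18.0 and 37.6 CPM, where Tfap2c had 2.38 CPM, and Tfap2d had no read in any library.

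**Figure D4:**
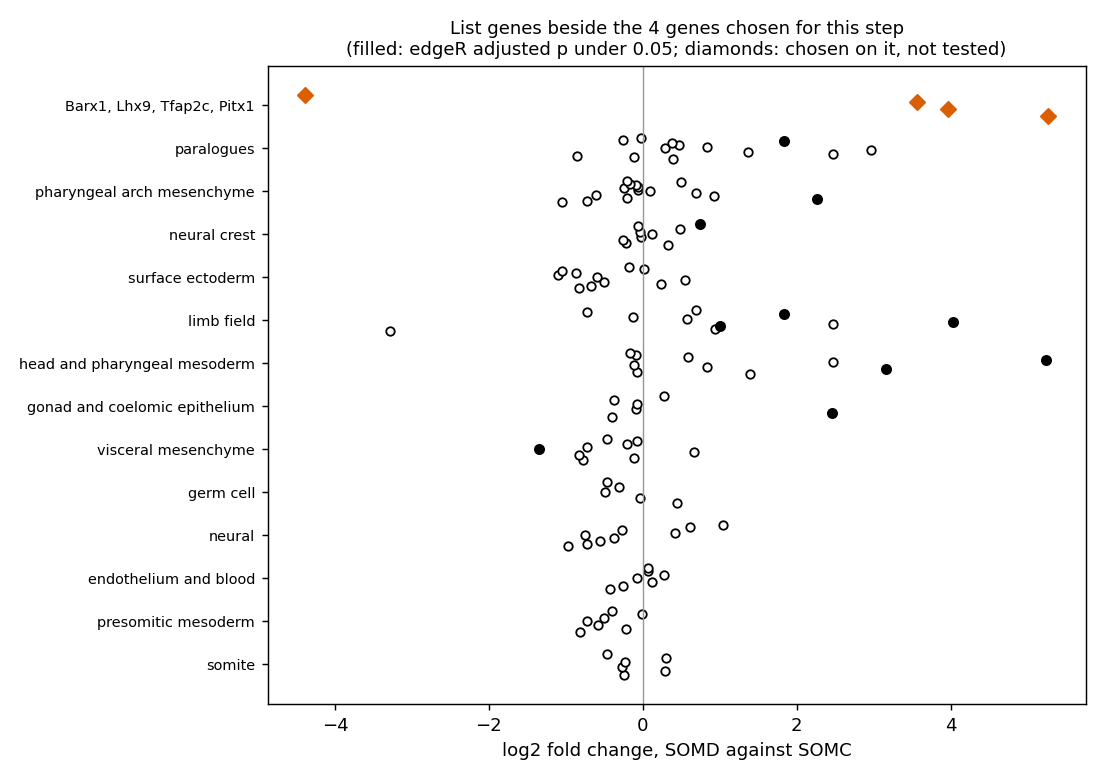
Log2 fold change of SOMD against SOMC for the tested genes of 13 lists, filled where the edgeR adjusted p was under 0.05, with diamonds for the 4 genes, which were chosen on this contrast. Limb field genes run from −3.29 (Tbx4) to 4.03 (Shox2), and none of the somite or presomitic mesoderm genes passed.

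Genes of tissues in which the 4 factors are known were counted in the same comparison. Of 10 limb field genes 3 rose and none fell: Shox2 (4.03 ± 0.65, edgeR adjusted p = 0.00383), Fgf10, the growth factor that starts limb outgrowth (1.01 ± 0.20, edgeR adjusted p = 0.0122), and Lmx1b. Their median was 0.82, against 0.00 over all genes. Fgf10 no longer passed without any 1 of SOMC1, SOMC4, SOMD1 and SOMD4 (edgeR adjusted p up to 0.0665), and with the replicate block 7 of the 10 rose and 2 fell. Shox2 had 11.9, 1.99, 2.85 and 11.5 CPM in SOMD1 to SOMD4 and 0.0647 to 0.652 CPM in SOMC. Shox2 and, below, Gsc passed the filter on low counts only with the SOMD libraries counted, where they were high. Their calls therefore add nothing to the counts. With the near-identical pairs summed, Shox2 and Fgf10 no longer passed (edgeR adjusted p = 0.057 and 0.164). The summed level of the list was 597, 326, 462 and 604 CPM in SOMD1 to SOMD4, and these libraries stood in the same order as for Lhx9. The pharyngeal arch list, below, had the same order (880, 723, 758 and 893 CPM), so the order is not particular to limb field genes. SOMD1 and SOMD4 are also near-identical libraries. The limb field sum was 313 to 393 CPM in SOMC, 196 to 342 CPM in SOMB and 245 to 487 CPM in SOMA. Its part in the levels of Lhx9 was not tested.

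Tbx4 and Tbx5, the T-box factors of hindlimb and forelimb, were picked out after their values were seen. Tbx4, which Pitx1 is known to activate in the hindlimb, had 92.8, 34 and 26.2 CPM in SOMA1, SOMA3 and SOMA4 and 39.1, 10.6, 2.40 and 1.70 CPM in SOMB1 to SOMB4. It had 9.81, 0.259, 0.326 and 9.71 CPM in SOMC1 to SOMC4 and 0.729, 0.259, 0.154 and 0.747 CPM in SOMD1 to SOMD4 (SOMD against SOMC −3.29 ± 1.34, edgeR adjusted p = 0.313; −3.46 with the replicate block, edgeR adjusted p = 2.69e-05). SOMC1 and SOMC4, the SOMC libraries with more Pitx1, were also those with more Tbx4. These are the near-identical pair and may count as 1 sample, and a link between the 2 genes was not tested. Tbx5 averaged 0.837, 5.55, 25.5 and 47.7 CPM in SOMA, SOMB, SOMC and SOMD (SOMD against SOMC 0.94 ± 0.58, edgeR adjusted p = 0.676; 1.03 with the block, edgeR adjusted p = 0.0036).

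Of 10 genes of head and pharyngeal mesoderm 2 rose and none fell. Nkx2-5, a heart factor, had 31, 14, 3 and 35 reads in SOMD1 to SOMD4 and 0, 0, 1 and 1 in SOMC1 to SOMC4 (edgeR adjusted p = 0.00704). It passed the filter on low counts only through SOMD, where it was high, so it had to differ, and its call adds nothing to the count. Without SOMD1, SOMD2 or SOMD4 it could not be tested. Msc, a bHLH factor of head muscle, had 0.896 ± 0.514 CPM in SOMD and 0.108 ± 0.0591 CPM in SOMC (SD, n = 4 each; 3.16 ± 0.64, edgeR adjusted p = 0.0152). Of 6 tested genes of gonad and coelomic epithelium, Gata4 rose (2.46 ± 0.43, edgeR adjusted p = 0.0061). Of 9 tested genes of visceral mesenchyme, Hand1, a bHLH factor of lateral plate mesoderm, fell (−1.35 ± 0.22, edgeR adjusted p = 0.00412), with 27.6 ± 3.64 CPM in SOMD and 71.0 ± 18.7 CPM in SOMC. The medians of the head mesoderm, gonad and visceral lists were 0.71, −0.08 and −0.47. With the replicate block 4 rose and 1 fell of 8 tested head mesoderm genes, 2 rose and 1 fell of 6 gonad genes, and 1 rose and 6 fell of 9 visceral genes. Msc no longer passed without any 1 of SOMC1, SOMC4, SOMD1 and SOMD4 (edgeR adjusted p up to 0.101). With the near-identical pairs summed, Gata4, Hand1 and Msc no longer passed (edgeR adjusted p = 0.0733, 0.0583 and 0.12).

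Medians here were −0.09 for pharyngeal arch mesenchyme, −0.02 for neural crest, −0.60 for surface ectoderm, −0.31 for germ cells, −0.38 for neural tissue, 0.07 for endothelium and blood, −0.51 for presomitic mesoderm and −0.24 for the somite. Of 15 tested genes of pharyngeal arch mesenchyme, where Barx1 and Pitx1 are known, Gsc rose (2.26 ± 0.51, edgeR adjusted p = 0.0293), at 1.36 ± 0.805 CPM in SOMD and 0.306 ± 0.1 CPM in SOMC. Of 9 tested neural crest genes Ngfr, a neurotrophin receptor gene, rose (0.75 ± 0.16, edgeR adjusted p = 0.0239), and none of 11 genes of surface ectoderm, 5 of germ cells or 9 of neural tissue passed. Gsc no longer passed without any 1 of SOMC1, SOMC2, SOMC4, SOMD1 and SOMD4 (edgeR adjusted p up to 0.168). Its call adds nothing to the count, since it passed the filter only with SOMD counted, where it was high. Ngfr no longer passed without any 1 SOMC library or without SOMD1 or SOMD4 (edgeR adjusted p up to 0.116). The summed level of the neural crest list was 161 to 188 CPM in SOMD and 145 to 173 CPM in SOMC. That of surface ectoderm was 82.8 to 157 CPM in SOMD and 167 to 202 CPM in SOMC. Its lowest values were 82.8 and 83.8 CPM in the near-identical libraries SOMD1 and SOMD4, and its part in the levels of Tfap2c was not tested. The germ cell genes Dppa3 and Prdm14 had no read in SOMD. None of 7 genes of endothelium and blood, 7 of presomitic mesoderm or 6 of the somite passed. At an unadjusted p under 0.05 there were 3 genes of surface ectoderm, 2 of germ cells, 2 of neural tissue, 0 of endothelium and blood, 1 of presomitic mesoderm and 1 of the somite. With the replicate block 3 rose and 5 fell of 14 arch genes, 2 rose and none fell of 9 neural crest genes, and none rose and 5 fell of 10 surface ectoderm genes. In the same fit 1 rose and 2 fell of 5 germ cell genes, 1 rose and 3 fell of 9 neural genes, none rose and 2 fell of 7 genes of endothelium and blood, none rose and 2 fell of 4 presomitic genes, and 2 rose and 4 fell of 6 somite genes. With the near-identical pairs summed, no tested gene of any of the 13 lists passed.

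Within 200 kb of the 4 genes 13 annotated genes could be tested in SOMD against SOMC, and none passed edgeR, with 1 at an unadjusted p under 0.05, against 11.3% of all genes. With the replicate block 1 of 12 was called, Dennd1b near Lhx9 (0.33 ± 0.12 without the block, edgeR adjusted p = 0.227). The nearest tested were 2310009B15Rik, 3406 bases from Lhx9 (0.16 ± 0.14, edgeR adjusted p = 0.852), and Ptpdc1, 37334 bases from Barx1 (0.19 ± 0.15, edgeR adjusted p = 0.82). Near Pitx1, Pcbd2 had 7.49 CPM in SOMD and 7.64 CPM in SOMC on average (−0.01 ± 0.15, edgeR adjusted p = 0.999).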

How the data were processed

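The files deposited by the authors give whole-number read counts for each gene, from TruSeq RNA v2 libraries of 11 PCR rounds. The submitters' processing notes name TopHat2 2.0.9, Cufflinks, HTSeq 0.6, DESeq2 1.10 and mm10; no source used here gives the annotation or the strand setting. The 5 HTSeq summary lines were left out; unassigned reads came to 6.54 to 12.8% (no gene) and 0.584 to 1.85% (ambiguous).

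A low-count filter (filterByExpr, at least 10 reads and 15 in total) came before TMM scaling and quasi-likelihood F tests in edgeR 4.0.16 under R 4.3.3, with Benjamini-Hochberg adjustment over all genes tested and a threshold of 0.05. All 4 genes passed the filter except Lhx9 in DIR against CTRL. The SOM groups shared 1 fit, DIR with CTRL and MUT with WT had their own, and CTRL against SOMA and WT against SOMB came from a fit of all 29 libraries. The procedure was tested on simulated data. The 4 genes and 13 gene lists were chosen with earlier results of these data known. Beside the 4 genes, the text names the 3 genes most alike to each, tested paralogues (the values of 1 are not reported here), up to 3 called genes per list and neighbours within 200 kb. Same-number libraries deviated together in SOMB against SOMA (correlations of 0.49 to 0.525 over 3 pairs) and in SOMD against SOMC (0.483 to 0.593 over 4 pairs). These numbers were therefore taken to pair samples, which the labels do not state. Libraries of different number were not compared in this way, and numbers 1 and 4 are near-identical in SOMC and in SOMD. The correlations therefore cannot show that the numbers pair samples. Alternatives were RLE or no scaling, no filter, DESeq2 1.42.0, another set of libraries in the fit, a replicate block, near-identical pairs summed and each library left out. Positions come from GENCODE M21 and promoters from RefSeq (GRCm38.p6). Promoter entries matched 2 of the 4 genes by symbol. Figures were drawn with matplotlib 3.10.9.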

Additional observations from a re-analysis of the deposited data

How the results depend on the processing

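The 4 genes' values in SOMD against SOMC moved by less than the spread between replicates under all 14 alternatives run, and the calls of Barx1 in SOMB against SOMA and of Barx1 and Pitx1 in WT against SOMB held under all alternatives run. Scaling by library totals moved the median of all genes in WT against SOMB to 0.151, on the log2 scale. Low read numbers limit Lhx9 in culture and in SOMA3, SOMA4, SOMB3 and SOMB4, and Barx1 in SOMB and MUT1.

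In DIR against CTRL Barx1 passed with DESeq2 (−2.29), in the fit of all 29 libraries (−2.33) and with a replicate block (−2.30, adjusted p = 0.0189); the numbers do not pair those samples. Tfap2c passed with DESeq2 (1.64). Pitx1 turned to 0.57 and Barx1 moved to −1.38 once the multiply aligned share was fitted, a setting added after seeing the data. In SOMB against SOMA Pitx1 passed with the replicate block (−0.53), and the calls of Barx1 and Tfap2c did not change with the block there, while Lhx9 had no value under it; leaving out 1 library gave Lhx9 −0.16 (without SOMB1) to 2.06 and Tfap2c −1.15 to 0.55 (without SOMA1). In MUT against WT it gave Barx1 −3.33 to 0.02 (without WT2), Lhx9 1.12 to 2.52 (without WT3), Tfap2c −0.16 to 0.61 and Pitx1 −0.14 (without MUT1) to 0.65; Tfap2c was −0.16 without MUT2 and −0.03 without WT3. In CTRL against SOMA Barx1 passed with only the 2 groups in the fit (2.05) and without CTRL1, over a range of 1.51 to 2.38. There Lhx9 ran from −2.02 to 0.07 and Tfap2c from −0.84 to 0.35 (both turned without SOMA1), and Pitx1 from −0.13 to 0.47 (−0.08 without CTRL3, −0.13 without CTRL4). In WT against SOMB Lhx9 ran from −1.59 to 0.22 and Tfap2c from 0.49 to 1.66 (the upper value of both without SOMB1). The cause of these changes was not tested.

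Counts of all genes called moved more. In DIR against CTRL 106 genes were called, and 497 with DESeq2, 1482 in the fit of all libraries, 256 with the replicate block, 216 with the share as a term and 40 to 97 without 1 library. In SOMB against SOMA 1196 were called, and 797 with only both groups fitted, 2413 with the replicate block and 796 to 1146 without 1 library. In MUT against WT 49 were called, and 106 with library totals only, 197 with no filter, 710 with DESeq2, 21 in the fit of all libraries, 328 with the replicate block, 1 with only the libraries of low Xist (MUT1 and WT, also added later) and 0 to 88 without 1 library. In CTRL against SOMA 4472 were called, and 2938 with only both groups fitted and 3020 to 4756 without 1 library. In SOMD against SOMC 322 were called, and 142 in the fit of all libraries, 51 with near-identical pairs summed, 2175 with the replicate block and 130 to 372 without 1 library.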
